A study of Ovis aries with 10 samples.

Results

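The 4 ovine miRNAs oar-miR-150, oar-miR-181a, oar-miR-191 and oar-miR-221 are linked to blood and immune cells. They were chosen by name for these roles, with earlier results of these data known. They are 4 of the 152 miRNAs on the array, and each was read in every sample. Lung tissue came from female sheep aged 9 months by the labels, in which bleomycin was instilled through a bronchoscope into a caudal lung segment and saline into the opposite caudal segment of the same animal, and tissue was taken at 4 weeks. The fibrotic (Fibrosis) and the normal (Normal) segment of sheep 2, 3, 6, 7 and 10 were profiled on 10 arrays, 1 per segment. These 5 sheep were picked from 10 treated animals for the most severe fibrosis, so the arrays cover the most affected animals. Whole tissue was used, and the normal segment of a sheep lay in an animal that also carried the injured one. Conditions were taken from the labels, which give the left segment as fibrotic in sheep 2 and 3 and the right segment in sheep 6, 7 and 10, whereas the methods name the left segment as bleomycin-infused throughout.

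A miRNA is a short RNA that guides a silencing complex to messenger RNAs through its seed, the bases near its 5′ end, and lowers the protein made from them. Blood cells carry sets of miRNAs that change as the cells mature, and whole lung tissue contains blood, resident lymphocytes and macrophages beside epithelium, endothelium and fibroblasts. MiR-150 is abundant in mature lymphocytes and is known for repressing the transcription factor MYB. MiR-181a is known from the thymus, where it tunes the sensitivity of the T cell receptor. MiR-191 is found in T cells and many other cells and is often used as a reference in PCR. MiR-221 is known from blood progenitors, mast cells and endothelium, where it represses the receptor KIT and the cell cycle inhibitor CDKN1B.

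By hairpin name, 5 genes of the sheep assembly ARS-UI_Ramb_v3.0 in RefSeq matched the 4 miRNAs. MIR191 lies between the protein-coding genes NDUFAF3 and DALRD3. MIR221 has ZNF674 as a protein-coding neighbour. MIR181A-1 lies beside NR5A2, and MIR181A-2 lies within the bounds of NR6A1. The single miR-181a probe is named for neither hairpin, so its signal cannot be assigned to either of them.

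The values deposited by the authors were linear intensities, corrected for background. The summed intensity of the 152 miRNAs was between 138979 and 146225 per array, and that of the 55 control probes between 78151 and 936426. The 4 miRNAs were bright, with a lowest value of 309, and no value of theirs met the floor of 1 set before the log2 transform. A mean log2 intensity of at least 5 was reached by 59 of the 152 miRNAs. Precision is limited by having 5 sheep, since the 10 arrays are pairs from these animals.

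For none of the 4 miRNAs was the mean log2 difference between fibrotic and normal segments larger than the SD of the within-sheep changes. Oar-miR-150, oar-miR-181a and oar-miR-191 had mean intensities of 81.4%, 88.8% and 89.8% of the normal segment, as geometric means over the 5 sheep, and each was lower in 4 of 5 sheep. For oar-miR-221 the corresponding value was 103%, with 3 sheep higher and 2 lower. Limma, blocked on sheep and adjusted over 152 miRNAs by Benjamini-Hochberg, called 0 of the 4, where it called 0 of all 152 (0%), and at an unadjusted p under 0.05 it called 0 of the 4 and 18 of 152 (11.8%). Without limma's pooling of variances, the test named in the methods, run here over sheep, called 0 of 152 after adjustment and 9 (paired) or 6 (unpaired) at an unadjusted p under 0.05, none of them among the 4, and 1 or 2 at the methods' threshold of 0.01. The limma adjusted p was 0.540 for oar-miR-150, oar-miR-181a and oar-miR-191 alike and 0.907 for oar-miR-221. Two-sided exact sign-flip permutation tests of the within-sheep changes gave p = 0.3125 for oar-miR-150, 0.1875 for oar-miR-181a, 0.25 for oar-miR-191 and 0.9375 for oar-miR-221, where 5 sheep allow no p below 0.0625. None of the 4 moved in the same direction in all 5 sheep, which 21 of 152 miRNAs (13.8%) did.

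**Figure D1:**
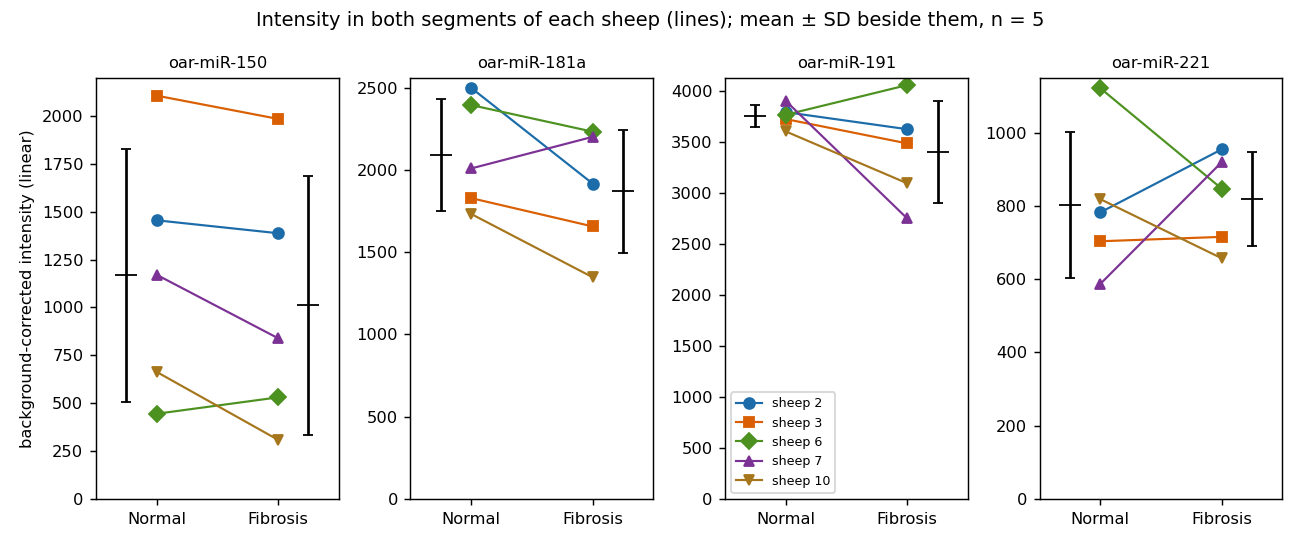
Background-corrected intensity (linear axis from 0) of the 4 miRNAs in the normal and the fibrotic segment, with a line for each sheep and the mean ± SD of the 5 sheep at the sides. The lines of oar-miR-150 keep sheep 2, 3 and 7 above sheep 6 and 10, those of oar-miR-191 start close together and fan out, and those of oar-miR-221 cross.

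In the order sheep 2, 3, 6, 7 and 10, oar-miR-150, the lymphocyte miRNA, had intensities of 1455, 2107, 445, 1171 and 664 in normal segments and of 1388, 1985, 530, 840 and 309 in fibrotic ones. Sheep 3 was the highest and sheep 6 and 10 were the lowest in both conditions, and the conditions overlapped. The within-sheep log2 changes, in the same order, were -0.068, -0.086, 0.25, -0.48 and -1.10. The fall in sheep 10, by 1.10 on the log2 scale, was the widest change among the 4 miRNAs in any sheep. The mean log2 fold change was -0.30 with a standard error of 0.22 and a 95% interval from -0.86 to 0.27 (limma, n = 5), and without sheep 10 it was -0.095. The interval spans 55.1% to 120% of the normal segment.

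Intensities of oar-miR-181a, the T cell receptor regulator, were 2498, 1828, 2394, 2009 and 1732 in the normal segments of the same sheep in this order, and 1917, 1656, 2232, 2200 and 1348 in their fibrotic segments. It was lower in the fibrotic segment of every sheep but sheep 7, and the conditions overlapped. Its log2 changes by sheep were -0.38, -0.14, -0.10, 0.13 and -0.36. The mean log2 fold change was -0.17 with a standard error of 0.13 and a 95% interval from -0.50 to 0.16 (limma, n = 5).

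Oar-miR-191, the common PCR reference, was at 3789, 3721, 3763, 3899 and 3600 in normal segments, again by sheep 2, 3, 6, 7 and 10, and its fibrotic segments were at 3622, 3483, 4054, 2747 and 3092. The 5 normal segments lay close together, at 3754 ± 109 (SD, n = 5), while the fibrotic segments lay at 3399 ± 501 (SD, n = 5) and held both the highest and the lowest of the 10 values. The log2 changes by sheep were -0.065, -0.096, 0.11, -0.51 and -0.22, the largest in sheep 7, with sheep 6 as the exception in direction. The mean log2 fold change was -0.16 with a standard error of 0.14 and a 95% interval from -0.49 to 0.18 (limma, n = 5), and without sheep 7 it was -0.068.

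For oar-miR-221, the KIT repressor, the normal intensities by sheep 2, 3, 6, 7 and 10 were 782, 703, 1121, 587 and 818, and the fibrotic intensities were 954, 715, 847, 919 and 657. Sheep 6 had the highest and sheep 7 the lowest normal segment, and these animals also had the largest changes, of opposite sign. The log2 changes by sheep were 0.29, 0.024, -0.40, 0.65 and -0.32. The fibrotic values all lay within the range of the normal ones. The mean log2 fold change was 0.047 with a standard error of 0.20 and a 95% interval from -0.44 to 0.54 (limma, n = 5), and it was -0.012 without sheep 2 and -0.10 without sheep 7.

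**Figure D2:**
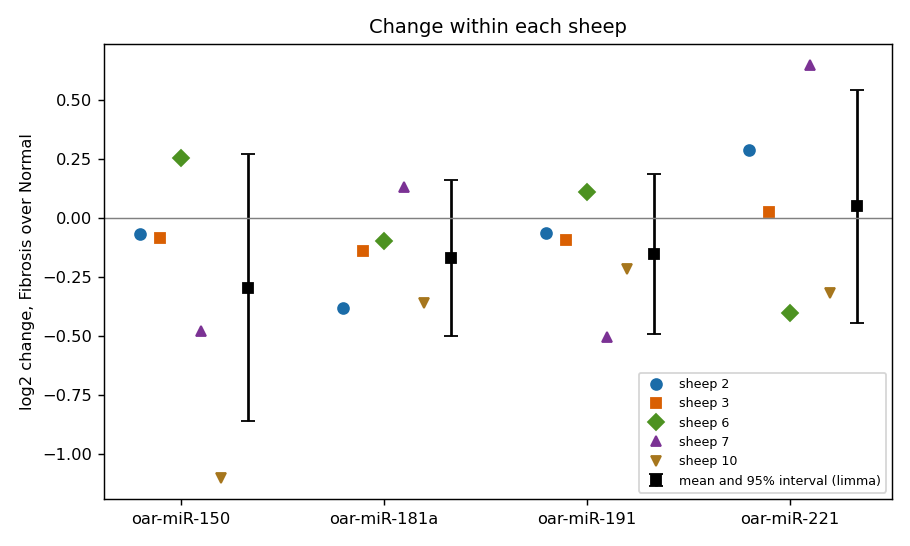
Log2 change of the fibrotic over the normal segment for each of the 4 miRNAs (symbols, 1 per sheep), with the limma mean and its 95% interval in black. All 4 intervals include 0.

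In sheep 6, oar-miR-150 and oar-miR-191 were higher and oar-miR-181a and oar-miR-221 were lower in the fibrotic segment. In sheep 7 each of these signs was turned. Of all 152 miRNAs, 50 (32.9%) were lower in sheep 6 and 69 (45.4%) in sheep 7. These animals were set side by side after the values had been seen, and the share of all miRNAs with opposite signs in them was not counted. After removing the mean of each condition, the segments of sheep 7 correlated at -0.67 across all miRNAs, against 0.34 to 0.90 in the other sheep. Sheep 10 was the only animal in which all 4 were lower, with a median log2 change of -0.34, against -0.032 over the 59 bright miRNAs in that sheep. In sheep 10, 69 of all 152 miRNAs (45.4%) and 33 of the 59 bright ones (55.9%) were lower. In sheep 2 and 3, the animals in which labels and methods name the same segment, oar-miR-150, oar-miR-181a and oar-miR-191 were lower and oar-miR-221 was higher.

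The mean change lay below 0 for 3 of the 4 miRNAs, as it did for 81 of all 152 (53.3%), and 3 of the 4, against 39 of 152 (25.7%), were lower in at least 4 of 5 sheep. The median log2 fold change of the 4 was -0.16, against -0.021 for all 152 miRNAs and -0.066 for the 59 with a mean log2 intensity of at least 5. The study had listed these miRNAs from the same arrays, so their directions are not independent evidence. With arrays centred on their control probes the median of all miRNAs moved by 0.21, oar-miR-181a and oar-miR-191 were then above 0 at 0.039 and 0.055, and oar-miR-150 was at -0.086. That scaling left 30.9% of all miRNAs below 0. Relative to the median of all 152, the values were -0.28 for oar-miR-150, -0.15 for oar-miR-181a, -0.13 for oar-miR-191 and 0.068 for oar-miR-221.

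**Figure D3:**
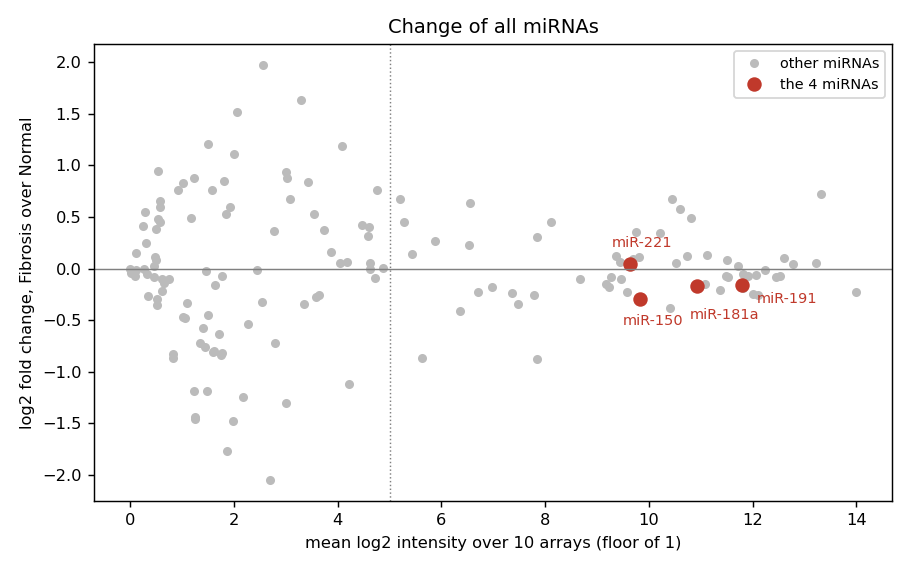
Log2 fold change of the fibrotic over the normal segment (vertical axis) against the mean log2 intensity over the 10 arrays (horizontal axis) for all 152 miRNAs, with the 4 miRNAs in red and a dotted line at a mean of 5. The 4 lie among the bright miRNAs, with changes between -0.30 and 0.047.

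Whether the 4 miRNAs changed unequally was examined within arrays, where the scaling between arrays cancels. The difference between the log2 changes of oar-miR-150 and oar-miR-221 was -0.34 on average with an SD of 0.68 (n = 5), with oar-miR-150 the lower in 4 of 5 sheep. Between oar-miR-181a and oar-miR-221 it was -0.22 with an SD of 0.39 (n = 5). For oar-miR-181a against oar-miR-191 it was -0.016 with an SD of 0.38 (n = 5). The other pairs, oar-miR-150 against oar-miR-181a and oar-miR-191 and oar-miR-191 against oar-miR-221, differed by -0.13, -0.14 and -0.20. Over the 6 pairs, two-sided exact sign-flip permutation tests gave p between 0.3125 and 0.9375 and an adjusted p of 0.9375 for each. With 5 sheep no p below 0.0625 is possible, so these tests could not call a difference at 0.05. Each mean difference was smaller than its SD over the sheep.

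The side of the fibrotic segment gave no difference that 5 sheep could show. For oar-miR-150 the mean log2 change was -0.077 in the 2 sheep with a left and -0.44 in the 3 sheep with a right fibrotic segment. The corresponding means were -0.26 and -0.11 for oar-miR-181a, -0.080 and -0.21 for oar-miR-191, and 0.16 and -0.025 for oar-miR-221. Two-sided exact permutation tests of these 4 differences gave p between 0.4 and 0.8 and an adjusted p of 0.8 for each, with 0.1 as the smallest p that 2 against 3 sheep allow.

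The sheep differed from each other in oar-miR-150 by more than its segments did within a sheep. Its geometric mean over both segments was highest at 2045 in sheep 3, followed by 1421 and 992 for sheep 2 and 7 and by 486 and 453 for sheep 6 and 10, a range of 4.52-fold. Sheep 6 and 10 differed by less than their own segments did. The SD of the sheep means was 0.95 on the log2 scale against an SD of 0.52 for the within-sheep change, while the medians over the 59 bright miRNAs were 0.37 and 0.34. The SD between sheep was the fourth widest of these 59. A mean of 2 segments spreads less than their difference where arrays vary independently, so equal values of these SDs do not mark equal variation.

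For the other miRNAs the sheep lay closer together. The sheep means spanned 1.51-fold for oar-miR-181a, 1.37-fold for oar-miR-221 and 1.19-fold for oar-miR-191. The SD between sheep was 0.25 for oar-miR-181a, against 0.21 for its within-sheep change. In oar-miR-191 and oar-miR-221 the within-sheep change had the larger SD, with 0.23 against 0.11 and 0.43 against 0.20. Without any difference between sheep the change would also be expected to have the larger SD.

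A limma F test of the differences between sheep, added after these values had been seen, gave oar-miR-150 a limma adjusted p of 0.155 over 152 miRNAs. It called 0 of 152 (0%) at an adjusted p under 0.05 and 40 of 152 (26.3%) at an unadjusted p under 0.05, among them oar-miR-150 and none of the other 3. Without sheep 7 the limma adjusted p of oar-miR-150 was 0.0301, with 27 of 152 called, and over the other scalings and the other animals left out in turn it was between 0.0866 and 0.478.

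The arrays of sheep 6 and 10 also stood apart in the probes for 5S ribosomal RNA. The summed intensity of these 12 probes was between 159810 and 580864 over the 4 arrays of these animals and between 33415 and 81857 over the 6 arrays of the others. The mean log2 intensity of the control probes used for centring overlapped, at 8.80 to 9.85 in sheep 6 and 10 and at 7.59 to 8.86 in the others. Over the same arrays oar-miR-150 was between 309 and 664 in sheep 6 and 10 and between 840 and 2107 in sheep 2, 3 and 7, with no overlap. The part of the 5S signal in the level of oar-miR-150 was not tested. Within sheep 2, 3 and 7 oar-miR-150 was lower in each fibrotic segment, and in sheep 6 and 10 the directions differed.

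**Figure D4:**
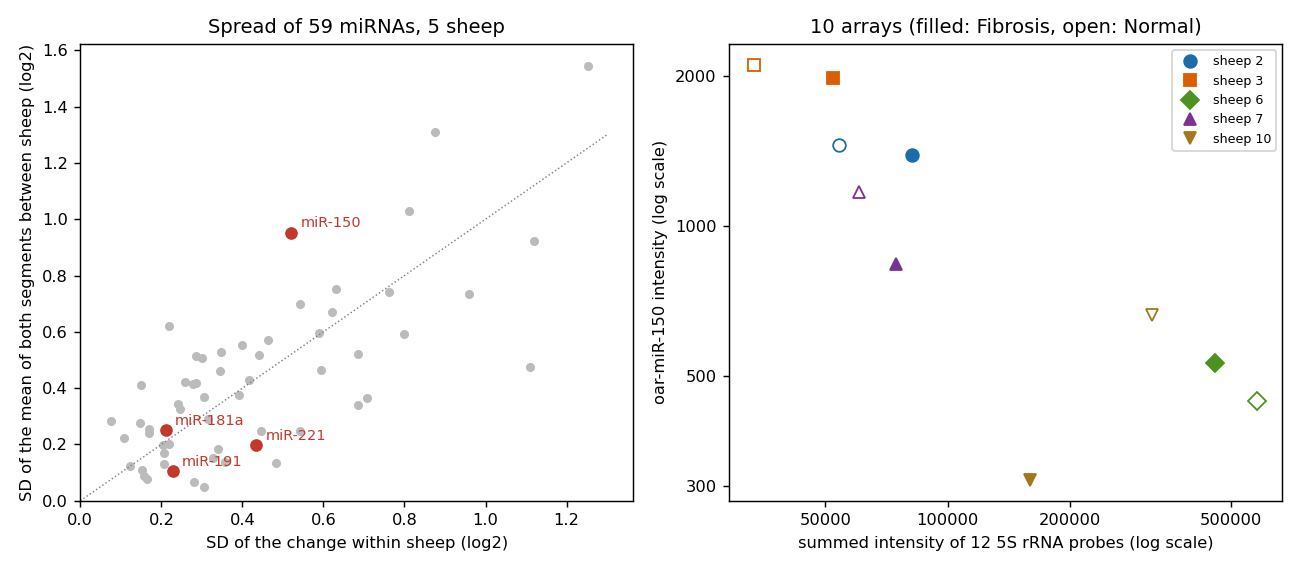
Left, SD between sheep of the mean of both segments (vertical axis, log2) against the SD of the within-sheep change (horizontal axis, log2) for the 59 miRNAs with a mean log2 intensity of at least 5, with the 4 miRNAs in red and a dotted line of equal SDs. The line does not mark equal variation, since a mean and a difference of segments are on unlike scales. Right, intensity of oar-miR-150 against the summed intensity of 12 5S ribosomal RNA probes on the 10 arrays (both log axes, filled symbols for fibrotic segments), where the arrays of sheep 6 and 10 lie at high 5S and low oar-miR-150 signal.

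The profiles most like each of the 4 over the 10 arrays were sought among the 59 bright miRNAs by the root mean square difference of log2 values, each centred on its own mean. For oar-miR-150 these were oar-miR-30d at 0.50, oar-miR-125b at 0.50 and oar-miR-30c at 0.60, against a median of 0.92 over the bright miRNAs. Like oar-miR-150, oar-miR-30d and oar-miR-125b were lowest in sheep 6 and 10. Oar-miR-30d was at 419 to 899 in these animals and at 1289 to 3823 in sheep 2, 3 and 7. Oar-miR-125b was at 1793 to 2289 in sheep 6 and 10 and at 3088 to 4714 in the others. For oar-miR-30c these ranges overlapped. For oar-miR-181a the closest were oar-miR-30a-5p at 0.18, oar-miR-16b at 0.21 and oar-miR-23b at 0.22. For oar-miR-191 they were oar-miR-106a, oar-miR-17-5p and oar-miR-16b, at 0.15, 0.15 and 0.17. For oar-miR-221 they were oar-miR-16b at 0.24, oar-miR-26a at 0.25 and oar-miR-181a at 0.25. These values describe 10 arrays that share 5 animals, and small values come easily to miRNAs that vary little.

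A wider list held 29 miRNA names linked to blood and immune cells. Apart from oar-miR-181a, which falls under 1 of these names and is among the 4, 11 names had 14 probes on the array. No probe read here carries the names of the myeloid miRNAs miR-142, miR-155 and miR-223 or of the red cell miRNAs miR-144, miR-451 and miR-486, or that of the endothelial miR-126, so the amount of blood or leukocytes in a segment was not measured. Of the 14 miRNAs, 7 had a mean change below 0 and 7 above, with a median log2 fold change of 0.014, and limma called 0 at an adjusted p under 0.05. At an unadjusted p under 0.05 limma called 1 of the 14, against 11.8% of all miRNAs, and 2 of the 14 moved in the same direction in all 5 sheep, against 13.8% of all miRNAs. The one called was oar-miR-21, which is induced in activated cells of many kinds. It was higher in all 5 sheep, by 0.73 ± 0.25 on the log2 scale (SE), and its limma adjusted p was 0.411. Oar-miR-29a, known as a repressor of collagens, was lower in all 5 sheep, with log2 changes between -0.40 and -0.039 and a limma adjusted p of 0.530. In bulk tissue, fewer cells of a type and less of a miRNA per cell cannot be told apart.

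Of 5 miRNAs that mark epithelium, oar-miR-200a, oar-miR-200b and oar-miR-200c were on the array. Their summed intensity was between 2400 and 4319 in normal and between 3496 and 6712 in fibrotic segments. Oar-miR-200b was higher in 5 of 5 sheep, with a log2 fold change of 0.58, and the other two in 4 of 5, with 0.67 for oar-miR-200a and 0.36 for oar-miR-200c. Of 4 markers of mesenchyme and smooth muscle, 2 were read, oar-miR-143 and oar-miR-199a-3p, with sums between 5564 and 20054 in normal and between 8483 and 16264 in fibrotic segments. Most of this sum was oar-miR-143, which was higher in 3 of 5 sheep, with a log2 fold change of 0.056. Oar-miR-199a-3p was at 1169 to 1872 in normal and at 1880 to 2408 in fibrotic segments, the higher value being fibrotic in 5 of 5 sheep, with a log2 fold change of 0.49. The limma adjusted p of these 5 markers was between 0.411 and 0.888. The single striated muscle marker read, oar-miR-133, was at 35 to 162 in normal and at 23 to 49 in fibrotic segments. It was lower in 3 of 5 sheep, with a log2 fold change of -0.86 and a limma adjusted p of 0.498. The part of these cell types in the changes of the 4 miRNAs was not tested.

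**Figure D5:**
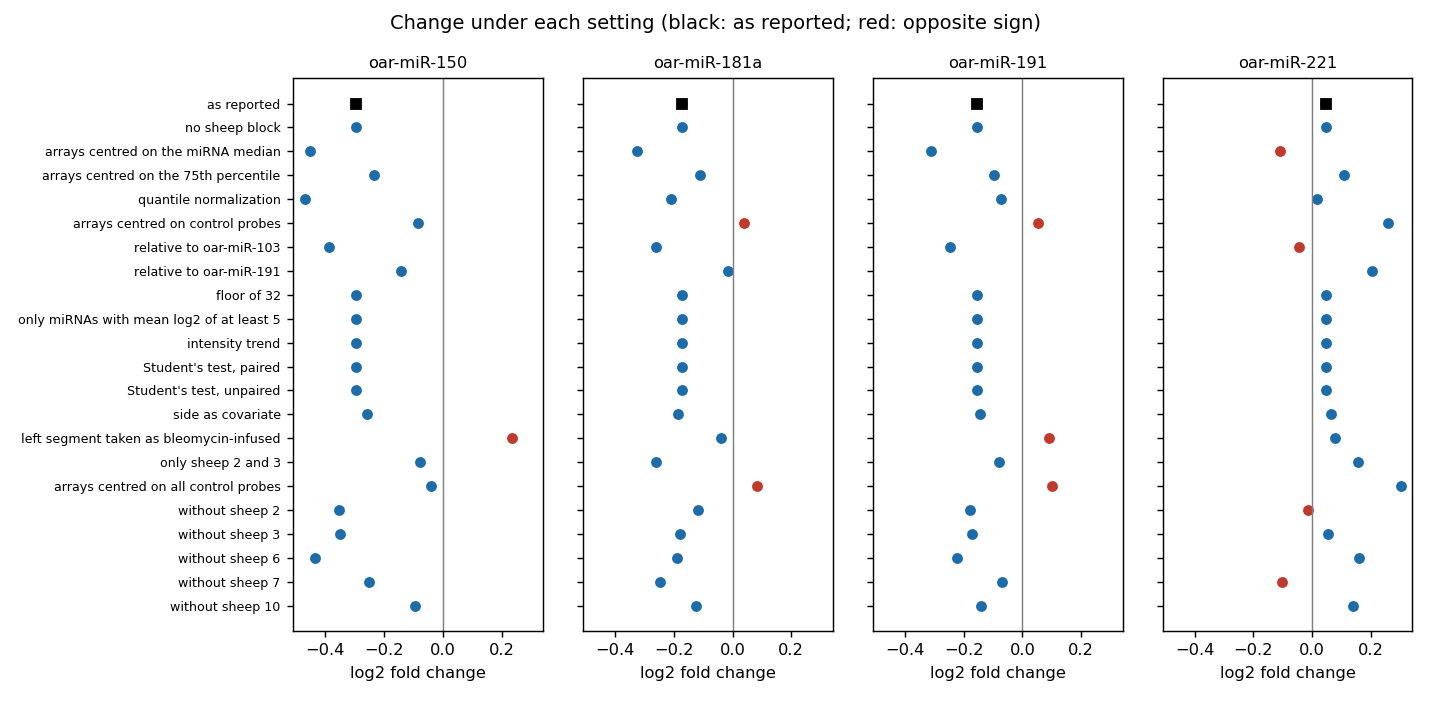
Log2 fold change of the fibrotic over the normal segment of the 4 miRNAs (horizontal axis) under each processing setting (rows), with the reported value in black and values of the opposite sign in red. Oar-miR-150 stays below 0 except when the left segment of every sheep is coded as fibrotic, where it is 0.24, and oar-miR-221 is below 0 under 4 settings.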

How the data were processed

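The authors hybridised Cy3-labelled RNA from 10 lung segments to a custom ovine array with 152 miRNA probes and 55 control probes. By the methods, 21 spots of a probe were averaged after background correction and taken to log2, but the intensity values the authors deposited were linear, 1 for each probe on an array. The methods analysed each sheep on its own. Any normalization between arrays is not given in the sources used here. The single spots were not analysed here.

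Values under 1 were raised to 1 before taking log2. A linear model of condition and sheep was run on all 152 miRNAs in limma 3.58.1 (R 4.3.3, empirical Bayes), two-sided, with Benjamini-Hochberg adjustment, and the code was tested on simulated data. Exact permutation tests used scipy 1.17.1. Segments were paired because both came from 1 animal. After removing the mean of each condition, both segments of a sheep correlated across miRNAs at -0.67 in sheep 7 and at 0.34 to 0.90 in the others.

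The miRNAs, the wider lists and the tests were chosen with earlier results of these data known. Named beside the 4 were list members with 1 direction in all sheep or an unadjusted p under 0.05, and the 3 closest profiles of each. Alternatives were other scalings, floors, filters, tests, codings and sheep left out. Mature sequences were not used here.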

Additional observations from a re-analysis of the deposited data

How the results depend on the processing

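No setting brought any of the 4 miRNAs, or any of all miRNAs, past an adjusted p of 0.05. The lowest adjusted p over the settings was 0.380 for oar-miR-150, 0.427 for oar-miR-181a and oar-miR-191, and 0.642 for oar-miR-221. With no replicate block the log2 fold changes were the same by construction (-0.30 for oar-miR-150) and no call changed, while the miRNAs at an unadjusted p under 0.05 went from 18 to 8. Centred on the control probes above the floor on all arrays, oar-miR-181a was at 0.039 and oar-miR-191 at 0.055, and centred on all control probes, a setting chosen after seeing the data, they were at 0.085 and 0.10. If the left segment of every sheep was coded as fibrotic, oar-miR-150 was at 0.24 and oar-miR-191 at 0.091. Oar-miR-221 was at -0.11 after centring by the median miRNA and at -0.044 relative to oar-miR-103. Leaving out each sheep in turn gave -0.43 to -0.095 for oar-miR-150, -0.25 to -0.12 for oar-miR-181a, -0.22 to -0.068 for oar-miR-191 and -0.10 to 0.16 for oar-miR-221. Centring moves every mean change alike, and so does taking values relative to oar-miR-103, whose own log2 fold change was 0.091. Coding every left segment as fibrotic turns the sign of the change in each sheep labelled fibrotic on the right. Leaving out a sheep gives the mean change of the remaining sheep. Each setting that reversed a sign did so for some of the 4 miRNAs and not for others. Why the sheep differed in direction was not tested.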

Other observations

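Among the 59 miRNAs with a mean log2 intensity of at least 5, oar-miR-191 had the smallest SD over the 5 normal segments, 0.042 on the log2 scale, against a median of 0.43. Its SD over the fibrotic segments was 0.22, which is 5.16 times the normal one and the largest such ratio of the 59. A wider SD in fibrotic than in normal segments was seen for 21 of the 59. This comparison was picked after the values had been seen and was not tested.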
